A study of Mus musculus with 8 samples.

Results

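Malat1, Neat1, Miat and Snhg11 are 4 noncoding transcripts known to be held in or enriched in the nucleus, and they were taken by symbol from the 32285 genes counted in single nuclei of mouse brain. Together they held 7.43% of all unique molecular identifiers (UMIs, 1 per captured RNA molecule) in the 97912 nuclei retained. Nuclei came from tissue punches of C57BL/6JN mice, taken on the left side from the anterior hippocampus and the caudate putamen, at 3 and 21 months of age, with no other treatment given in the labels. Each of the 4 groups (hippocampus at 3 months, hippocampus at 21 months, caudate putamen at 3 months and caudate putamen at 21 months) had 2 libraries, and each library mixed nuclei of a male and a female in equal numbers. The mice of a pair were not separated in the counts, so a library is 1 replicate of 2 pooled animals. Nuclei were not assigned to a sex here, and the labels do not say whether both regions of an animal were used.

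Malat1 is an abundant RNA of nuclear speckles, the bodies that store splicing factors, and its end is cut by RNase P and protected by a triple helix in place of a poly(A) tail. Neat1 builds paraspeckles: its long isoform, which ends in a similar helix, is the scaffold, whereas its short isoform ends in an ordinary poly(A) tail. Miat, also called Gomafu, is a neuronal RNA with repeats of the branch-point motif bound by the splicing factor SF1. Snhg11 is spliced from a gene that carries small nucleolar RNAs in its introns.

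The sequences below show the elements by which these RNAs are known, read from GENCODE vM21 transcripts of the GRCm38 build, the assembly that the name mm10 also stands for. In the first 2, capitals mark the stretches of the helix element that match the U-rich and A-rich patterns searched below (with T for U). A further U-rich run of long Neat1 falls short of these patterns and is in small letters. In the next, capitals mark the polyadenylation signal of short Neat1, and in the last 2 the repeated motif of Miat.
Malat1, longest transcript, bases 6601 to 6753 of 6983, chr19:5795920-5796072, minus strand: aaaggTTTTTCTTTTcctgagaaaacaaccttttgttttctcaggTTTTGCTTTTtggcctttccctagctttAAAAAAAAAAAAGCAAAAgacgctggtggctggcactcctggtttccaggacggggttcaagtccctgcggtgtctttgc
Neat1, long isoform, bases 20659 to 20771 of 20771, chr19:5824708-5824820, minus strand: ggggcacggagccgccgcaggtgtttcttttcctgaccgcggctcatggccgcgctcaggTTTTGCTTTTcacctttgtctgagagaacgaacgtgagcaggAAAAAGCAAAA
Neat1, short isoform, bases 2945 to 3004 of 3004, minus strand: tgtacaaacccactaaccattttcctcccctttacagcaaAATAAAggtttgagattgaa
Miat, transcript of 8758 bases, bases 4632 to 4675 of 8758, minus strand: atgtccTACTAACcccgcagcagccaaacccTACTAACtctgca
Miat, transcript of 8758 bases, bases 5180 to 5232 of 8758, minus strand: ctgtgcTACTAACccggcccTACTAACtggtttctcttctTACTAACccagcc

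The helix pattern was searched on the transcript strand as TTTTTCTTTT or TTTTGCTTTT, followed within 150 bases by at least 5 A, GC and 4 A. It was present in 8 of 141767 annotated transcripts (0.00564%), which belonged to Malat1, Neat1, Ahdc1 and Retreg3. In Malat1 the A-rich tract ran from base 6674 to base 6691, 292 bases before the annotated end, whereas long Neat1 ended on its tract. This Miat transcript, like the longest one of 9163 bases, held 6 copies of TACTAAC. Among 6335 transcripts of 5000 to 10000 bases, 14.1% held the motif at least once and 2 (0.0316%) held it 6 times or more, both of them Miat. These matches describe the letters only.

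On GRCm38 (GENCODE vM21), Malat1 (ENSMUSG00000092341) lies at chr19:5795690-5802672 and Neat1 (ENSMUSG00000092274) at chr19:5824708-5845478, both on the minus strand and 22.0 kb apart. Frmd8os, on the other strand, starts 0.145 kb beyond the 5′ end of Neat1. Miat (ENSMUSG00000097767) lies at chr5:112213228-112229395 on the minus strand between 1700028D13Rik and Cryba4. Its opposite strand holds the annotated gene Gm26953, which had 2285 UMIs against 63502 for Miat. Whether the counting used strand is not given in the sources used here, so part of one could be counted as the other. Snhg11 (ENSMUSG00000044349) lies at chr2:158375638-158386145 on the plus strand between Snhg17 and Ralgapb. It is annotated as protein coding in this release and as a long noncoding RNA in RefSeq, and its span holds 2 small nucleolar RNA genes, Gm25187 and Gm25129.

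Libraries held 6382 to 17031 retained nuclei, 64447207 to 186369934 UMIs and a median of 6702 to 11266 UMIs per nucleus. Nuclei were clustered without the 4 RNAs and named from marker genes, so that these RNAs had no part in defining a class. The names are given as "-like", since no deposited annotation of nuclei was used, and 3.71 to 15.5% of a library's nuclei stayed unnamed. Any 2 libraries shared 21 to 146 barcodes. A share below is the RNA's UMIs as a percentage of all UMIs of the nuclei considered, and an RNA's share can move because it or because other RNAs changed.

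Malat1 was the most counted gene in each of the 8 libraries. In hippocampus it took 6.78 and 6.41% of UMIs at 3 months and 6.22 and 7.50% at 21 months. In caudate putamen it took 7.08 and 7.74% at 3 months and 7.90 and 8.01% at 21 months. The second gene, Kcnip4 in hippocampus and Phactr1 in caudate putamen, took 1.02 to 1.20%. The ages overlapped for Malat1 in hippocampus. In caudate putamen they did not, with a ratio of old to young means of 1.07 (exact two-sided permutation test, p = 0.333, the smallest p that 2 against 2 libraries allow).

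Neat1 had a higher share in the older libraries of both regions. It took 0.00685 and 0.00711% of UMIs in the 3-month hippocampal libraries and 0.0141 and 0.0145% in the 21-month ones, a ratio of means of 2.05. In caudate putamen it took 0.00981 and 0.00946% at 3 months and 0.0190 and 0.0157% at 21 months, a ratio of 1.80. The age groups did not overlap in either region. The same exact permutation test gave p = 0.333 in each region. Fewer or more cells of a type and less or more RNA per cell cannot be told apart in such library shares. Oligodendrocyte-like nuclei carried 56.0 to 85.5% of the Neat1 UMIs of a library, and they were more numerous in the older libraries. They made up 10.7 and 9.12% of nuclei at 3 months and 15.6 and 17.8% at 21 months in hippocampus, and 19.5 and 16.8% against 27.1 and 23.4% in caudate putamen. The part of this in the library ratio was not tested, and the ages are compared within classes further on.

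Miat was higher in the hippocampal libraries. It took 0.0158 and 0.0196% of UMIs at 3 months and 0.0115 and 0.0128% at 21 months in hippocampus, against 0.00175, 0.00105, 0.00106 and 0.00122% in the 4 libraries of caudate putamen. Each hippocampal library lay above each one of caudate putamen. Snhg11 took 0.173 and 0.150% at 3 months and 0.146 and 0.162% at 21 months in hippocampus, where the ages overlapped. In caudate putamen it took 0.242 and 0.246% at 3 months and 0.203 and 0.242% at 21 months, and both ages lay above all hippocampal libraries. Per kilobase of the longest annotated transcript, counts scaled to a common library total (CPM) ranked in hippocampus as Malat1 at 9632 ± 811, Snhg11 at 269 ± 20.9, Miat at 16.3 ± 3.95 and Neat1 at 5.12 ± 2.04 (SD, n = 4 libraries). In caudate putamen they were 11001 ± 594, 398 ± 35.0, 1.39 ± 0.358 and 6.49 ± 2.23 (SD, n = 4), so Neat1 ranked above Miat there. A UMI stands for 1 molecule whatever its length, so shares of UMIs were compared as well. Per kilobase Miat lay above Neat1 in each hippocampal library, at 12.5 or more against 6.97 or less. Without division by length their order in hippocampus differed with age. By share of UMIs Neat1 lay below Miat in the 3-month hippocampal libraries. It lay above Miat in the 21-month ones, at 0.0141 and 0.0145% against 0.0115 and 0.0128%. Reads were counted per gene, so the short and long isoforms of Neat1 were not separated.

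Malat1 was high in every class, with a UMI in 100% of the nuclei of every class shown. In hippocampus its mean share ran from 8.90% ± 0.70 in oligodendrocyte-like nuclei (SD, n = 4 libraries), through 8.65% ± 0.98 in CA3-like and 8.15% ± 0.62 in astrocyte-like nuclei, down to 5.08% ± 0.44 in microglia-like nuclei. The remaining excitatory neurons, at 3.87% ± 0.36, were lowest. In caudate putamen it ran from 13.5% ± 0.73 in mural-like cells of vessel walls, through 10.4% ± 0.44 in oligodendrocyte-like and 10.2% ± 0.67 in astrocyte-like nuclei, to 5.24% ± 0.17 in interneuron-like nuclei. The medium spiny neurons that make up most of this region had 7.57% ± 0.47 (D1-like) and 7.32% ± 0.30 (D2-like).

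The number of class pairs told apart by Malat1 differed between scalings. Classes were compared pairwise with edgeR's quasi-likelihood test on summed counts, with library as a block and Benjamini-Hochberg adjustment over all genes of each pair. A pair was called at an adjusted p under 0.05. Of all gene-by-pair tests, 53.5% were called in hippocampus and 49.9% in caudate putamen. Malat1 was called in 17 of 55 pairs of hippocampal classes and in 24 of 45 pairs of classes in caudate putamen. With plain library totals in place of edgeR's scaling factors (TMM) the counts were 14 and 15. That change moves all genes of a pair by about the same amount, for Malat1 by a median size of 0.34 on the log2 scale in hippocampus and 0.38 in caudate putamen. The sign of the Malat1 difference turned in 10 and 8 pairs, of which 0 were called under both scalings. Along the order of shares, no neighbouring pair in hippocampus was called under either scaling. In caudate putamen 3 neighbouring pairs were called with scaling factors and 0 with totals. Of these, endothelial-like against D1-like nuclei went against the order of shares, at -0.73 on the log2 scale (SE 0.25, edgeR adjusted p = 0.0112).

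Neat1 was highest in oligodendrocyte-like nuclei and lowest in neurons. In hippocampus, oligodendrocyte-like nuclei had 0.109 and 0.139% of UMIs at 3 months and 0.150 and 0.181% at 21 months. In caudate putamen they had 0.122 and 0.142% at 3 months and 0.169 and 0.162% at 21 months. The next of the tested classes were the vascular and leptomeningeal-like (VLMC-like) nuclei of hippocampus at 0.0401% ± 0.011 (SD, n = 4) and the endothelial-like nuclei at 0.0367% in hippocampus and 0.0337% in caudate putamen. Oligodendrocyte-like nuclei exceeded the next class by 2.25 on the log2 scale (SE 0.17, edgeR adjusted p = 1.33e-15) in hippocampus and by 2.52 (SE 0.19, edgeR adjusted p = 8.56e-14) in caudate putamen. Among the remaining classes, neighbours from VLMC-like to astrocyte-like nuclei in hippocampus, and from endothelial-like to astrocyte-like nuclei in caudate putamen, were not told apart with scaling factors.

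Neuronal Neat1 was set beside 8 marker genes of oligodendrocytes. Neuronal classes had 0.000613 to 0.00121% of UMIs in hippocampus and 0.00134 to 0.00163% in caudate putamen. In dentate granule-like nuclei this was 0.539 to 0.760% of the oligodendrocyte-like share of the same library. The 8 oligodendrocyte markers, read the same way in the same nuclei, had medians of 0.851 to 1.29%. Single markers spanned 0.160 to 6.21% there and 0.131 to 4.15% in D1-like nuclei, so they do not mark 1 common level. In D1-like nuclei Neat1 stood at 0.864 to 0.998% and the markers at 0.957 to 1.41%. In D2-like nuclei they were 0.828 to 0.954% and 1.11 to 1.53%, and in CA1-like nuclei 0.355 to 0.595% and 0.401 to 0.771%. In CA3-like nuclei they were 0.256 to 0.535% and 0.333 to 0.611%. Hippocampal interneuron-like nuclei had 0.416 to 0.526% and 0.320 to 0.830%, and those of caudate putamen 0.808 to 1.82% and 1.17 to 1.77%. Neat1 lay below the median of the markers in all 4 libraries for dentate granule-like and D2-like nuclei. It lay above it in 2 of 4 libraries for CA1-like, CA3-like and hippocampal interneuron-like nuclei, and in 1 of 4 for the others. The part of stray RNA in neuronal Neat1 was not tested. For a comparison at equal depth, nuclei with at least 2000 UMIs were thinned to 2000 and shallower nuclei were left out. This kept 905 of 1099 oligodendrocyte-like nuclei of the first 3-month hippocampal library. After thinning, 81.2 to 93.2% of oligodendrocyte-like nuclei of hippocampus had a Neat1 UMI. The values were 1.42 to 2.08% for dentate granule-like nuclei there and 2.26 to 3.11% for D2-like nuclei. Without thinning, over all nuclei of these classes, the shares were 87.5 to 96.5%, 6.46 to 12.3% and 12.7 to 18.2%. Median depths were 2981 to 3362, 9982 to 11498 and 8990 to 14342 UMIs.

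Miat was highest in CA1-like neurons, with 0.0245 and 0.0285% of UMIs at 3 months and 0.0226 and 0.0215% at 21 months. Dentate granule-like nuclei had 0.0174 and 0.0206% at 3 months and 0.0136 and 0.0148% at 21 months. CA1-like nuclei exceeded them by 0.66 on the log2 scale (SE 0.16, edgeR adjusted p = 0.000683). The other excitatory (0.0156%) and CA3-like (0.0133%) nuclei came next, and neighbours from dentate granule-like to CA3-like nuclei were not told apart. Interneuron-like nuclei followed at 0.00808%, 0.97 below CA3-like nuclei on the log2 scale (edgeR adjusted p = 1.73e-05). In caudate putamen the order was another one. Among the tested classes interneuron-like nuclei led with 0.00626 and 0.00513% at 3 months and 0.00873 and 0.00484% at 21 months. Oligodendrocyte precursor-like (OPC-like) nuclei had 0.00512 and 0.00438% at 3 months and 0.00462 and 0.00388% at 21 months, 0.80 above eccentric medium spiny-like nuclei on the log2 scale (SE 0.26, edgeR adjusted p = 0.0111). D1-like and D2-like neurons had 0.000591 and 0.000705%, the lowest mean shares among the named neurons of the region. The step from interneuron-like to OPC-like nuclei, 0.55 on the log2 scale, had an edgeR adjusted p of 0.0497 with scaling factors and 0.108 with totals. The OPC-like share was 364 to 657% of the share over all named classes of the library, unnamed nuclei left out. Snap25, a gene of neuronal synapses, stood at 36.2 to 49.2% in the same nuclei, read the same way. Unnamed nuclei of caudate putamen had 0.00710 to 0.0122% Miat, above each tested class of that region in mean share.

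Snhg11 was high in neurons except dentate granule-like nuclei. In hippocampus interneuron-like nuclei had 0.504 and 0.434% at 3 months and 0.515 and 0.506% at 21 months, other excitatory nuclei a mean of 0.476%, CA1-like nuclei 0.349% and CA3-like nuclei 0.324%. Neighbours among these 4 classes were not told apart. Dentate granule-like nuclei had 0.0483 and 0.0496% at 3 months and 0.0677 and 0.0670% at 21 months, below each of those classes in each library. Among the tested classes of caudate putamen interneuron-like nuclei led at 0.529% ± 0.025 (SD, n = 4). They exceeded eccentric medium spiny-like nuclei (0.326%) by 0.54 on the log2 scale (SE 0.14, edgeR adjusted p = 0.0017). D1-like nuclei had 0.243 and 0.250% at 3 months and 0.218 and 0.255% at 21 months, and D2-like nuclei, at 0.239% on average, were not told apart from them.

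Glial classes had mean shares of 0.0191 to 0.0359% Snhg11 in hippocampus and 0.0408 to 0.0718% in caudate putamen. As a share of the level over all named classes of the library, Snhg11 in oligodendrocyte-like nuclei was 16.4 to 34.1% in hippocampus and 21.5 to 28.0% in caudate putamen. Snap25 in the same nuclei was 13.5 to 26.8% and 21.3 to 30.4%, Syt1 6.24 to 13.003% and 11.7 to 19.3%, and Rbfox3 3.52 to 7.25% and 5.40 to 8.71%. These 3 pan-neuronal genes were chosen after values were seen. In oligodendrocyte-like nuclei Snhg11 was near the level of Snap25 and above those of Syt1 and Rbfox3. In OPC-like nuclei it lay below Snap25, at 17.9 to 25.2% against 32.5 to 44.3% in hippocampus and 21.2 to 24.3% against 36.2 to 49.2% in caudate putamen. It lay above Syt1, at 3.29 to 11.1% and 6.60 to 12.8%, and Rbfox3, at 1.43 to 4.43% and 3.24 to 5.26%, in these nuclei. The part of stray neuronal RNA in glial Snhg11 was not tested. After thinning, 27.8 to 56.0% of oligodendrocyte-like nuclei of hippocampus had a Snhg11 UMI, against at least 99.8% of interneuron-like nuclei. Before thinning 44.7 to 76.2% of the oligodendrocyte-like nuclei had one, at the depths given above.

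**Figure D1:**
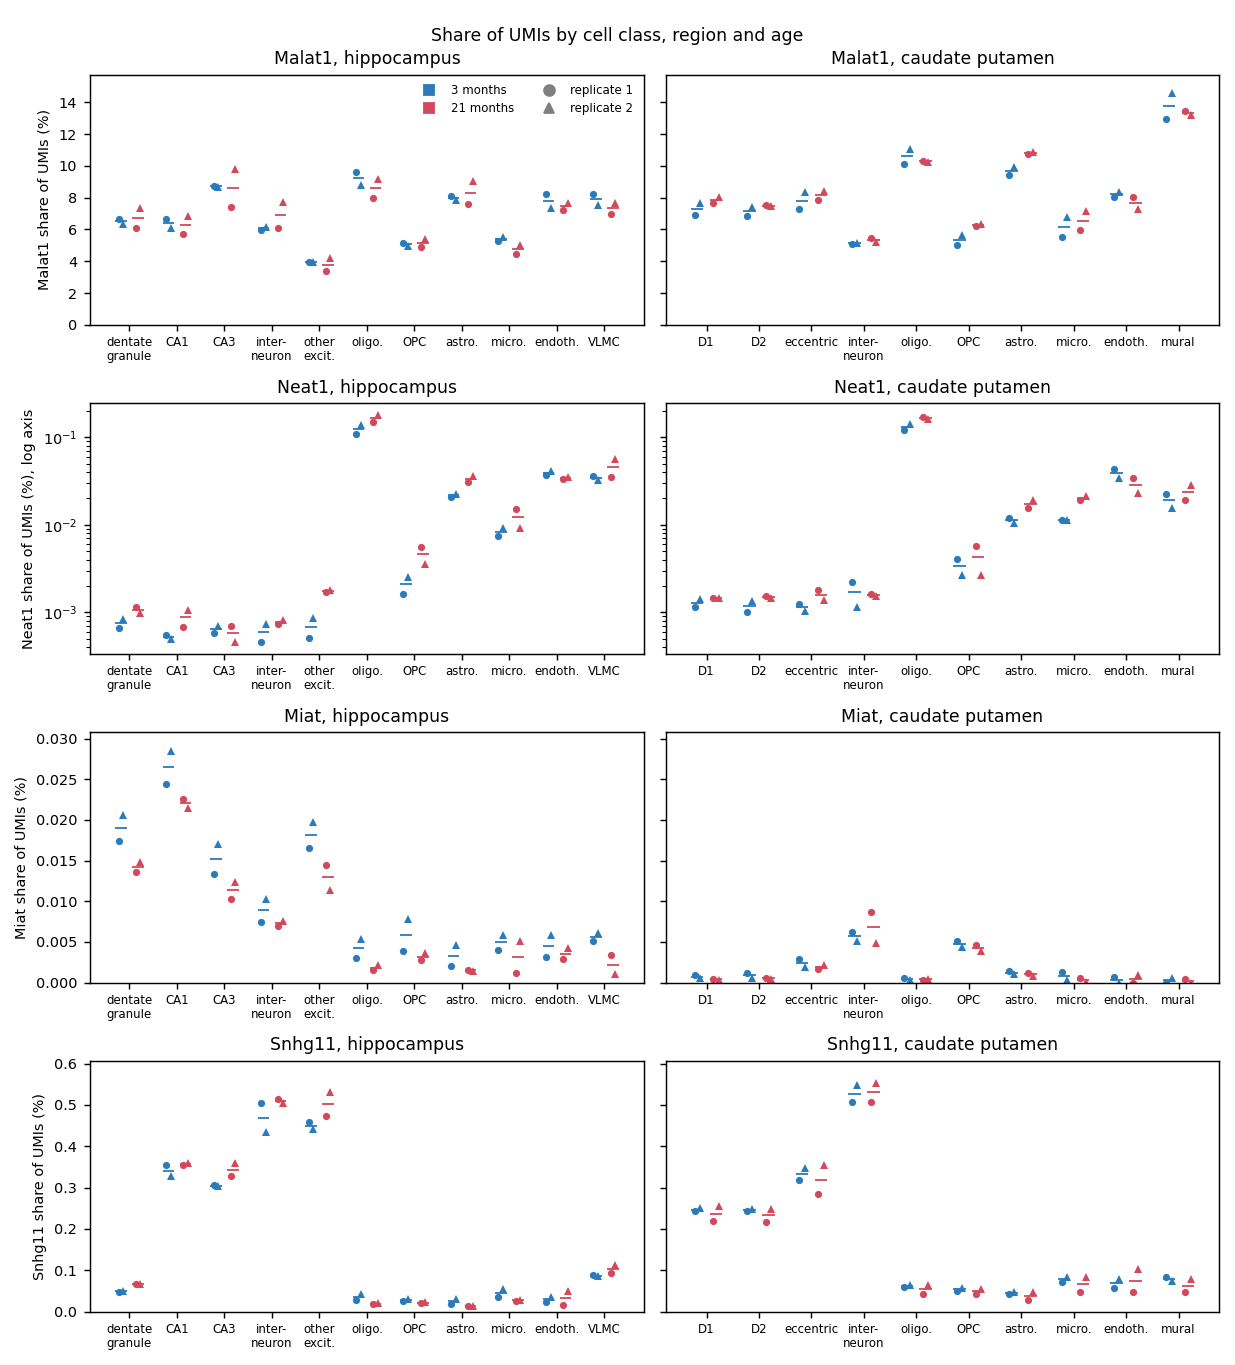
Share of UMIs (%, y axis, logarithmic for Neat1) of each RNA in each class (x axis) of hippocampus (left) and caudate putamen (right); each point is 1 library, bars are means of 2 libraries, blue 3 months and red 21 months. Malat1 lies between 3.37 and 14.6% in the classes shown, Neat1 peaks in oligodendrocyte-like nuclei at 0.109 to 0.181%, and Snhg11 is low in dentate granule-like nuclei and in glia.

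Neurons and glia were also compared as sets of classes in 1 model per region, where 72.1% of genes were called in hippocampus and 75.8% in caudate putamen. Neat1 was lower in neurons by a log2 difference of -4.27 (SE 0.12, edgeR adjusted p = 5.1e-31) in hippocampus and -3.33 (SE 0.11, edgeR adjusted p = 2.14e-25) in caudate putamen. Snhg11 was higher in neurons by 3.76 (SE 0.13, edgeR adjusted p = 5.43e-28) and 2.94 (SE 0.08, edgeR adjusted p = 1.06e-31). Miat was higher by 2.48 (SE 0.10, edgeR adjusted p = 2.85e-23) and 0.94 (SE 0.16, edgeR adjusted p = 2.38e-06). Each class weighed equally in its set, however many nuclei it held. Each fit used the class sums of the 4 libraries of its region, with library as a block. Its standard errors and p-values therefore do not measure the spread among the classes of a set. In caudate putamen the mean Miat shares of D1-like and D2-like nuclei (0.000591 and 0.000705%) lay below those of OPC-like (0.00450%) and astrocyte-like nuclei (0.00112%). They lay above those of microglia-like (0.000575%) and oligodendrocyte-like nuclei (0.000432%). With scaling factors D1-like and microglia-like nuclei were not told apart by Miat (edgeR adjusted p = 0.100). Astrocyte-like and D2-like nuclei were not told apart either (edgeR adjusted p = 0.206), though with library totals they were (edgeR adjusted p = 0.00583). Malat1 was not called, at 0.24 (SE 0.13, edgeR adjusted p = 0.104) and 0.18 (SE 0.12, edgeR adjusted p = 0.182). With library totals in place of scaling factors its differences turned to -0.09 and -0.19, as the median over all genes moved from -0.05 to -0.39 in the hippocampal fit, and from -0.06 to -0.43 in that of caudate putamen. Malat1 lay above that median under both scalings, but the change moves all genes by about the same amount, so this could not differ. The signs and calls of Neat1, Snhg11 and Miat held under both.

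Whether age changed the level within a class was tested for 4 glial classes over both regions, with the mean of the regional age effects as the contrast. Neat1 rose in astrocyte-like, microglia-like and oligodendrocyte-like nuclei, the 3 of 16 RNA-by-class results that were called. Among all genes, 3.57% were called in astrocyte-like, 1.57% in microglia-like, 5.68% in oligodendrocyte-like and 2.06% in OPC-like nuclei.

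Astrocytes, which support synapses and take up transmitter, had the most stable rise. In hippocampus astrocyte-like nuclei had 0.0210 and 0.0228% Neat1 at 3 months and 0.0306 and 0.0359% at 21 months. In caudate putamen they had 0.0119 and 0.0106% at 3 months and 0.0155 and 0.0194% at 21 months. Older libraries lay above younger ones without overlap in both regions. The rise was 1.57-fold, 0.65 on the log2 scale (SE 0.08, edgeR adjusted p = 0.00106). It was called in each region too, at 0.66 in hippocampus (SE 0.11, edgeR adjusted p = 0.0158) and 0.64 in caudate putamen (SE 0.12, edgeR adjusted p = 0.0292). After thinning, 28.2 and 32.8% of hippocampal astrocyte-like nuclei had a Neat1 UMI at 3 months and 39.96 and 43.5% at 21 months. Before thinning these were 50.2, 53.8, 65.8 and 68.3%. The summed share of 8 oligodendrocyte markers in these nuclei was 0.0300 to 0.0327% at 3 months and 0.0312 to 0.0316% at 21 months in caudate putamen, all 8 above 0. In hippocampus it was 0.0141 to 0.0254% and 0.0142 to 0.0166%, and the ages overlapped in both regions. The 8 astrocyte markers themselves summed to 1.56 to 1.62% at 3 months and 1.65 to 1.68% at 21 months in hippocampus. In caudate putamen the astrocyte sums were 1.34 to 1.36% and 1.43 to 1.47%, so they were higher without overlap in both regions. Some lists named for other cell types were also higher at 21 months without overlap. In hippocampus the sum of 16 interneuron markers was 0.0437 to 0.0541% and 0.0664 to 0.0713%, that of 8 CA3 markers 0.160 to 0.180% and 0.184 to 0.188%, and that of 9 microglia markers 0.00829 to 0.00833% and 0.00923 to 0.0111%. In caudate putamen the sum of 8 CA1 markers was 0.0311 to 0.0335% and 0.0367 to 0.0402%, and that of 8 dentate granule markers 0.284 to 0.286% and 0.297 to 0.315%. These lists are not particular to the types they are named for. In hippocampus the CA1 sum was 0.348 to 0.430% in oligodendrocyte-like and 0.357 to 0.391% in CA1-like nuclei. The CA3 sum in astrocyte-like nuclei there lay above the 0.0775 to 0.0910% of dentate granule-like nuclei. The part of RNA from other cells in the rise was not tested. Leaving out 1 library kept the difference at 0.54 to 0.77 in hippocampus and 0.49 to 0.78 in caudate putamen, but several of these fits, with 1 library left in a group, lost the call. Without the first or second 21-month library of hippocampus the adjusted p was 0.0981 and 0.264. Without the second 21-month, first 3-month or second 3-month library of caudate putamen it was 0.223, 0.0864 and 0.204, and after thinning 0.0551. Over both regions the adjusted p stayed between 0.000487 and 0.0127 without any 1 library.

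Microglia, the immune cells of brain tissue, had 0.00739 and 0.00910% Neat1 at 3 months and 0.0153 and 0.00927% at 21 months in hippocampus, so the groups nearly met. In caudate putamen the values were 0.0115 and 0.0113% at 3 months and 0.0191 and 0.0214% at 21 months, with a clear gap. These shares rest on 42 to 216 UMIs per library. The rise over both regions was 1.64-fold, 0.72 on the log2 scale (SE 0.15, edgeR adjusted p = 0.0165), and in caudate putamen alone 0.86 (SE 0.19, edgeR adjusted p = 0.0432). Without the first 21-month library of hippocampus the value over both regions was 0.52 (adjusted p = 0.208), and without the second 3-month library of caudate putamen 0.71 (adjusted p = 0.0796). The call in caudate putamen alone was lost without its second 21-month, first 3-month or second 3-month library, with adjusted p of 0.227, 0.227 and 0.528. DESeq2, retained doublets and thinning ended both calls (adjusted p of 0.0806, 0.0637 and 0.186 over both regions, and 0.370, 0.130 and 0.163 in caudate putamen), and a coarser clustering ended the latter (0.0694). The summed oligodendrocyte markers in microglia-like nuclei were 0.0577 to 0.0582% at 3 months and 0.0564 to 0.0583% at 21 months in caudate putamen. In hippocampus they were 0.0215 to 0.0380% and 0.0338 to 0.0415%. Other marker lists moved with age in these nuclei without overlap. In caudate putamen the sum of 8 CA3 markers was 0.0159 to 0.0175% and 0.0249 to 0.0328%, and that of 8 astrocyte markers 0.0510 to 0.0539% and 0.0583 to 0.0751%. The 9 microglia markers there were lower at 21 months, at 0.654 to 0.784% against 0.808 to 0.821%. In hippocampus the CA3 sum was 0.0167 to 0.0202% and 0.0223 to 0.0282% and the dentate granule sum 0.3080 to 0.3083% and 0.313 to 0.321%, while the astrocyte sum was lower, at 0.0513 to 0.0620% against 0.0644 to 0.0787%. The CA1 sum was lower at 21 months in both regions. The part of RNA from other cells in the microglial rise was not tested.

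In oligodendrocytes, the myelin-forming cells, Neat1 rose 1.34-fold over both regions, 0.42 on the log2 scale (SE 0.09, edgeR adjusted p = 0.0208). The shares given above did not overlap between ages in either region. Without the first 21-month or first 3-month library of caudate putamen the adjusted p was 0.0587 and 0.106, and without the first or second 21-month library of hippocampus 0.0509 and 0.116. With library totals the difference was 0.37 (edgeR adjusted p = 0.0604). In the single regions the differences of 0.46 and 0.37 were not called (edgeR adjusted p = 0.102 and 0.200). In oligodendrocyte-like nuclei the CA3 marker sum was higher at 21 months, at 0.0511 to 0.0544% and 0.0624 to 0.0650% in hippocampus and 0.0474 to 0.0521% and 0.0548 to 0.0579% in caudate putamen. In caudate putamen the astrocyte sum was higher too, at 0.0308 to 0.0374% and 0.0462 to 0.0528%, and the oligodendrocyte markers themselves were lower, at 1.40 to 1.45% and 1.18 to 1.35%. The dentate granule and interneuron sums were lower at 21 months in both regions. The lists are not particular to the types they are named for. The dentate granule sum in hippocampus was 0.449 to 0.499% in oligodendrocyte-like nuclei and 0.748 to 0.791% in dentate granule-like nuclei. The part of RNA from other cells in the oligodendrocyte rise was not tested. OPC-like nuclei had 0.00162 and 0.00254% at 3 months and 0.00563 and 0.00353% at 21 months in hippocampus. In caudate putamen they had 0.00406 and 0.00268% against 0.00577 and 0.00268%, where the ages overlapped. Their difference of 0.76 on the log2 scale was not called (SE 0.25, edgeR adjusted p = 0.128). In endothelial-like nuclei, where no age test was run, Neat1 was 0.0374 and 0.0407% at 3 months and 0.0333 and 0.0352% at 21 months in hippocampus. In caudate putamen it was 0.0435 and 0.0339% against 0.0342 and 0.0233%, so the older libraries were not the higher ones there.

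**Figure D2:**
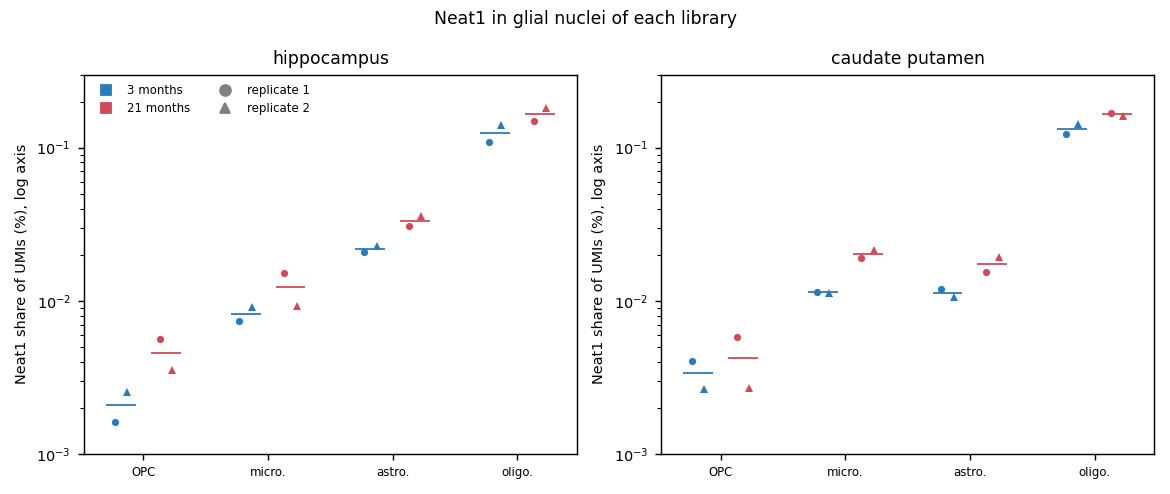
Neat1 share of UMIs (%, logarithmic y axis) in 4 glial classes (x axis) of hippocampus (left) and caudate putamen (right); points are libraries and bars means of 2, blue 3 months and red 21 months. In astrocyte-like, microglia-like and oligodendrocyte-like nuclei the red points lie above the blue ones in both regions, most narrowly for hippocampal microglia (0.00927 against 0.00910%).

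The age effect did not differ between regions by test in any of the 16 glial results. None had an unadjusted p under 0.05, and DESeq2 called 0 as well. Among all genes the test of this difference called 0% in astrocyte-like (830 at an unadjusted p under 0.05, 8 by DESeq2) and 0% in oligodendrocyte-like nuclei (1009, and 1 by DESeq2). It called 0.00978% in microglia-like and 0.038% in OPC-like nuclei. For Neat1 in astrocyte-like nuclei the difference, caudate putamen minus hippocampus, was -0.02 on the log2 scale (SE 0.17).

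Dentate granule-like nuclei, the neurons that relay cortical input into the hippocampus, had both changes of neuronal RNAs that were called. Snhg11 rose from 0.0483 and 0.0496% to 0.0677 and 0.0670% of UMIs, without overlap. The rise was 1.42-fold, 0.51 on the log2 scale (SE 0.05, edgeR adjusted p = 0.00032). In nuclei of 4000 to 16000 UMIs it was 0.52 (edgeR adjusted p = 0.00111), and after thinning to 2000 UMIs 0.51 (edgeR adjusted p = 1.37e-05). The share of nuclei with a UMI after thinning was 55.2 and 59.0% at 3 months and 68.7 and 66.3% at 21 months. In the other 4 hippocampal neuron classes the differences were 0.15 to 0.22 and were not called. Summed CA3 markers in dentate granule-like nuclei were 0.0775 to 0.0801% at 3 months and 0.0890 to 0.0910% at 21 months, all 8 above 0, and summed CA1 markers 0.0285 to 0.0313% and 0.0263 to 0.0265%. The 16 interneuron markers summed to 0.230 to 0.282% and 0.275 to 0.294%. The dentate granule markers themselves were lower at 21 months, at 0.748 to 0.761% against 0.762 to 0.791%. So were the astrocyte sum, at 0.0893 to 0.0927% against 0.110 to 0.111%, and the microglia sum, at 0.00686 to 0.00848% against 0.00913 to 0.00975%. The D1 sum was higher, at 0.00758 to 0.00791% against 0.00692 to 0.00748%. The part of other neurons' RNA in the rise of Snhg11 was not tested.

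Miat fell in the same nuclei, by 0.37 on the log2 scale (SE 0.08, edgeR adjusted p = 0.0243), from 0.0174 and 0.0206% to 0.0136 and 0.0148%. The groups did not overlap. Without the first 21-month library the difference was -0.31 (adjusted p = 0.265), and without the second -0.44 (adjusted p = 0.0797). Each of the 9 hippocampal classes tested had a negative Miat difference, from -1.17 to -0.18, but the others were not called, and they come from the same 4 libraries. In each of the 9 classes the second 3-month library had the highest Miat share of the 4. Neat1 in dentate granule-like nuclei was 0.000660 and 0.000836% at 3 months and 0.00114 and 0.000974% at 21 months, the low level set beside oligodendrocyte markers above. Its difference of 0.54 had an edgeR adjusted p of 0.0504.

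**Figure D3:**
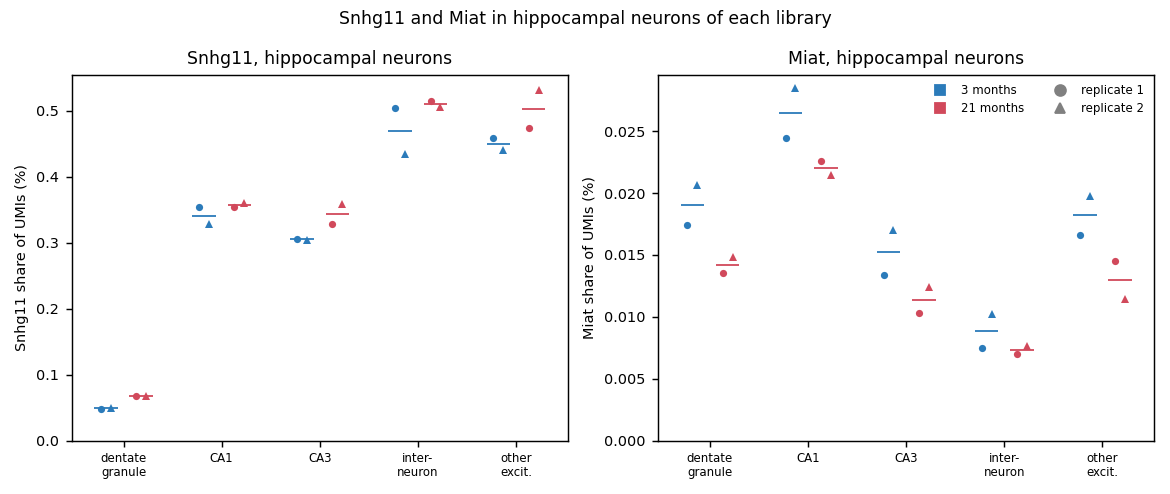
Snhg11 (left) and Miat (right) share of UMIs (%, y axis) in 5 neuronal classes of hippocampus (x axis); points are libraries and bars means of 2, blue 3 months and red 21 months. In dentate granule-like nuclei Snhg11 moves from 0.0483 and 0.0496% to 0.0677 and 0.0670%, and Miat from 0.0174 and 0.0206% to 0.0136 and 0.0148%.

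In all, 3 of 36 RNA-by-class results were called for age in hippocampus, namely Neat1 in astrocyte-like and Snhg11 and Miat in dentate granule-like nuclei. The share of all genes called there was 3.98% in dentate granule-like, 0.947% in CA1-like, 0.128% in CA3-like and 0.0826% in other excitatory nuclei. It was 0.814% in astrocyte-like, 0.117% in microglia-like, 1.04% in oligodendrocyte-like and 1.22% in OPC-like nuclei. In interneuron-like nuclei it was 0% (796 genes at an unadjusted p under 0.05, and 3 called by DESeq2). In caudate putamen 2 of 32 results were called, both for Neat1, in the astrocyte-like and the microglia-like class. The share of all genes called was 0.654% and 0.753% in these, 1.37% in oligodendrocyte-like, 0.333% in OPC-like, 1.33% in D1-like and 4.91% in D2-like nuclei. In eccentric medium spiny-like and interneuron-like nuclei it was 0% (1277 and 504 genes at an unadjusted p under 0.05, and 0 by DESeq2). DESeq2, called 7 of the 36 hippocampal results and the fit without a filter on low counts 10.

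Malat1 was not called for age in any class of either region. Its differences ran from -0.15 in microglia-like to 0.27 in interneuron-like nuclei of hippocampus (edgeR adjusted p from 0.656 to 0.994). In caudate putamen they ran from 0.01 in oligodendrocyte-like to 0.26 in OPC-like nuclei (edgeR adjusted p from 0.115 to 0.998). In D1-like and D2-like nuclei, the largest classes of caudate putamen, all 4 RNAs stayed uncalled in the main fit. There Miat had 0.000966 and 0.000513% at 3 months and 0.000501 and 0.000384% at 21 months in D1-like nuclei, a difference of -0.76 (SE 0.37, edgeR adjusted p = 0.366). With a replicate block, described further on, Miat was called in both classes, at -0.72 in each (edgeR adjusted p = 0.000193 and 0.00888).

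**Figure D4:**
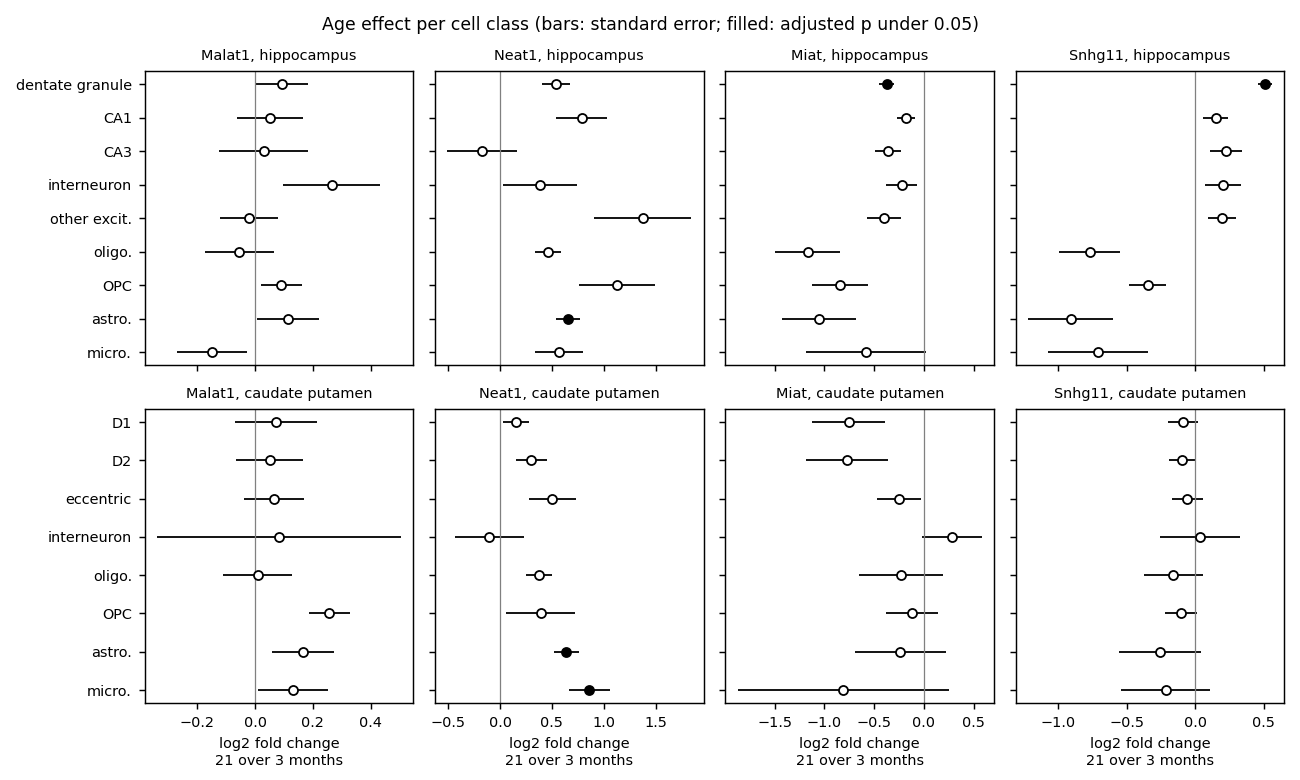
Log2 fold change of 21 over 3 months (x axis) of each RNA in each class (y axis), hippocampus above and caudate putamen below; bars are standard errors of the edgeR fit and filled points have an adjusted p under 0.05. The 5 filled points are Neat1 in astrocyte-like nuclei of both regions and in microglia-like nuclei of caudate putamen, and Snhg11 and Miat in dentate granule-like nuclei.

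Glial classes of the regions were compared with both ages weighted equally, and 10 of 16 results were called, 6 higher and 4 lower in caudate putamen. The background was high in this contrast, with 21.6% of genes called in astrocyte-like, 6.36% in microglia-like, 12.9% in oligodendrocyte-like and 5.22% in OPC-like nuclei. Neat1 showed opposite differences in 2 classes. In astrocyte-like nuclei it was lower in caudate putamen, with a log2 difference of -0.98 (SE 0.08, edgeR adjusted p = 1.04e-06), and the regions did not overlap at either age. In microglia-like nuclei it was higher by 0.61 (SE 0.15, edgeR adjusted p = 0.0156), and in oligodendrocyte-like nuclei the difference was 0.02 (SE 0.09, edgeR adjusted p = 0.929). The microglial call was lost with DESeq2 (0.102) and after thinning (0.0735). Without the second 21-month or second 3-month library of caudate putamen, or the second 21-month library of hippocampus, its adjusted p was 0.0534, 0.0649 and 0.104.

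Malat1 was higher in caudate putamen in astrocyte-like nuclei, at 9.46, 9.92, 10.7 and 10.9% against 8.11, 7.85, 7.61 and 9.02% in hippocampus. The difference was 0.29 on the log2 scale (SE 0.08, edgeR adjusted p = 0.0116), and 0.23 with an adjusted p of 0.108 without the first 21-month hippocampal library. In microglia-like nuclei it was 0.35 (SE 0.09, edgeR adjusted p = 0.0194), and the regions met at 5.50%. Without the second 21-month or second 3-month library of caudate putamen, or the first or second 21-month library of hippocampus, its adjusted p was 0.0858, 0.247, 0.266 and 0.0562, and with DESeq2 it was 0.150.

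The called differences of Miat and Snhg11 in glia had the direction of the whole libraries, Miat lower and Snhg11 higher in caudate putamen. Miat in oligodendrocyte-like nuclei was 0.00308, 0.00541, 0.00153 and 0.00218% in hippocampus and 0.000593, 0.000356, 0.000274 and 0.000504% in caudate putamen, a log2 difference of -2.75 (SE 0.26, edgeR adjusted p = 0.000176). In microglia-like nuclei it was -3.08 (SE 0.56, edgeR adjusted p = 0.00787), where the libraries of caudate putamen held 1 to 9 UMIs. In astrocyte-like nuclei it was -1.02 (SE 0.29, edgeR adjusted p = 0.0454), a call lost with library totals (0.0615) and after thinning (0.285). It was also lost without any 1 library other than the first 21-month one of caudate putamen and the 3-month ones of hippocampus, with adjusted p from 0.102 to 0.160. In OPC-like nuclei, where Miat stood above its library level in caudate putamen, the difference was -0.04 (SE 0.20, edgeR adjusted p = 0.959). Snhg11 was higher in caudate putamen by 1.13 in astrocyte-like (SE 0.22, edgeR adjusted p = 0.0172), 1.13 in oligodendrocyte-like (SE 0.16, edgeR adjusted p = 0.00179) and 1.01 in OPC-like nuclei (SE 0.09, edgeR adjusted p = 2.23e-10). The astrocyte-like call was lost without a filter on low counts (0.0612), without the second 3-month library of caudate putamen (0.0711) and without the first or second 21-month library of hippocampus (0.0614 and 0.0613). Both RNAs were highest in the second 3-month library within each of the 4 glial classes of hippocampus. Miat was highest in that library in each tested neuronal class of hippocampus too. The part of stray neuronal RNA in these regional differences was not tested.

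Shares differed with the depth of the nucleus. Nuclei were binned at 500, 2000, 4000, 8000 and 16000 UMIs, and the shallowest and deepest bins with at least 20 nuclei were compared within each named class and library. Malat1 was lower in the deeper bin in 70 of 78 such comparisons, with a ratio of 0.784 (the median over classes), and Snhg11 in 76 of 78, with a ratio of 0.684. Neat1 was lower in 50 of 77 and Miat in 48 of 69. In dentate granule-like nuclei Malat1 was 8.12% ± 0.60 at 4000 to 8000 UMIs and 5.68% ± 0.51 above 16000 UMIs (SD, n = 4 libraries). In D1-like nuclei it was 9.08% ± 0.50 and 6.82% ± 0.37 in the same bins, and Snhg11 0.301% ± 0.010 and 0.215% ± 0.017 (SD, n = 4). Among the classes measured in 4 libraries, 2 went the other way in all of them: Neat1 in hippocampal astrocyte-like nuclei, with a median ratio of 1.48, and Malat1 in hippocampal interneuron-like nuclei, with a median ratio of 1.11. Among nuclei of 1 class, a bin is not a sample, so these are descriptions and no test was run.

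**Figure D5:**
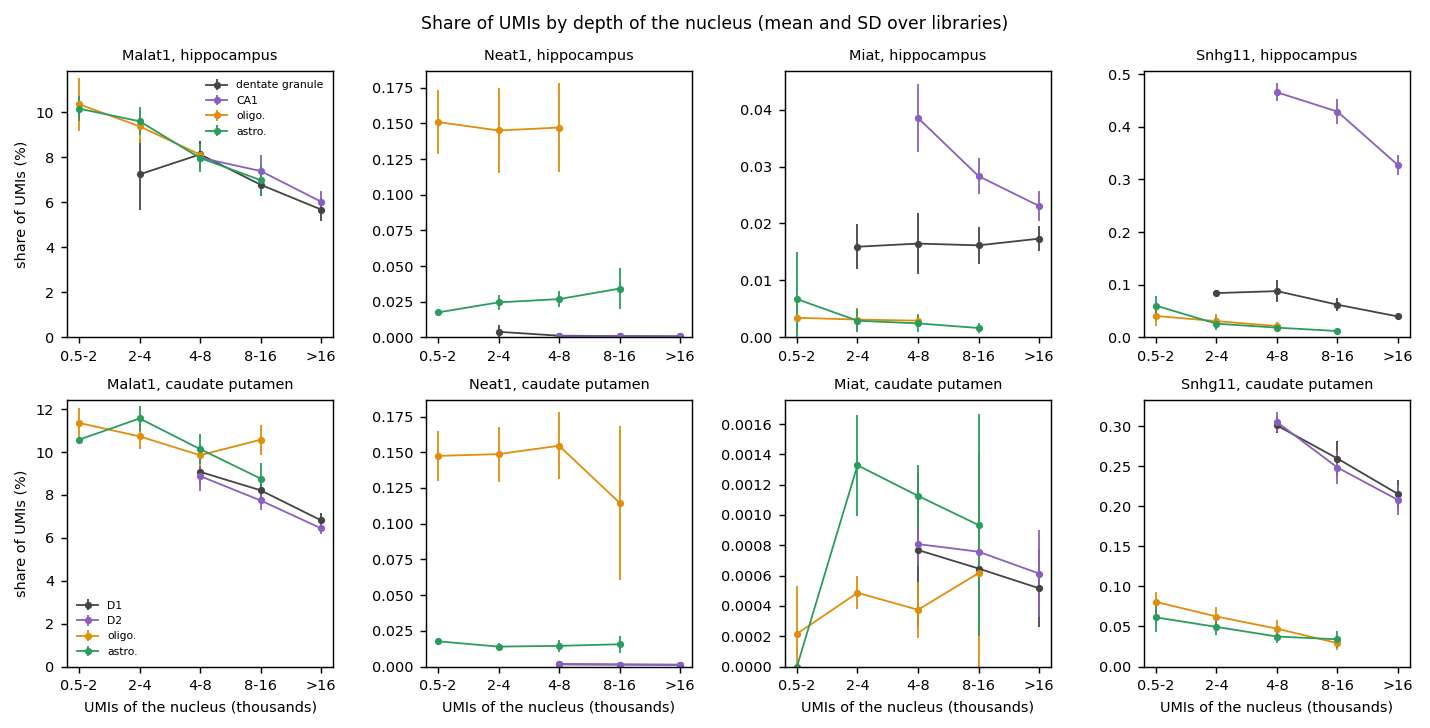
Share of UMIs (%, y axis) of each RNA against the total UMIs of the nucleus (x axis, the bins above in kilo-UMIs) in 4 classes per region; points are means and bars SDs over the libraries with at least 20 nuclei in the bin, and axes start at 0, which trims bars that would reach below it. In the 4 neuronal classes Malat1 and Snhg11 are lower above 16000 UMIs than at 4000 to 8000, as 0.215 against 0.301% for Snhg11 in D1-like nuclei.

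Genes of the bodies that hold these RNAs were read from lists, by counts and medians beside those of all genes tested. Of 28 tested paraspeckle protein genes, 2 rose and 2 fell with age in oligodendrocyte-like nuclei of both regions, against 3.53 and 2.14% of all genes. Cirbp, a cold-inducible RNA-binding protein, rose by 0.48 and Zc3h6 by 0.52, whereas Hnrnpa1 and Hnrnph1 fell by 0.43 and 0.29 on the log2 scale. In astrocyte-like nuclei Cirbp rose by 0.47, and Rbm3 and Hnrnph1 fell by 0.38 and 0.34, against 2.21% of all genes rising and 1.36% falling. The list's median was -0.04 in oligodendrocyte-like and -0.02 in astrocyte-like nuclei, beside -0.02 and -0.01 over all genes. In dentate granule-like nuclei Cirbp and Zc3h6 rose, by 0.43 and 0.25, the 2 of 28 that were called, against 2.25% of all genes. With library totals neither was called (edgeR adjusted p = 0.0640 and 0.0921). The lists named here were read with library totals too, and in oligodendrocyte-like and astrocyte-like nuclei the counts were the same.

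Of 37 other nuclear or snoRNA host transcripts, 4 of 36 tested rose and 3 fell with age in oligodendrocyte-like nuclei, 2 rose and 4 fell in astrocyte-like nuclei, and 2 of 30 rose in microglia-like nuclei. In OPC-like nuclei 2 of 28 rose and 2 fell. The shares of all genes rising and falling were 3.53 and 2.14%, 2.21 and 1.36%, 1.33 and 0.235%, and 1.24 and 0.827% in these classes. Pvt1, a transcript next to Myc, rose in each glial class: by 0.70 in astrocyte-like (SE 0.09, edgeR adjusted p = 0.00106), 0.67 in microglia-like (SE 0.10, edgeR adjusted p = 0.00122), 0.63 in oligodendrocyte-like (SE 0.09, edgeR adjusted p = 0.00263) and 0.52 in OPC-like nuclei (SE 0.14, edgeR adjusted p = 0.0399, and 0.0613 with library totals). The other riser in microglia-like nuclei was Xist, at 0.49, which only the female nuclei of each pooled library express, and the ratio of the sexes was not tested. In CA3-like nuclei of hippocampus Xist went the other way with age, at -0.92 (SE 0.13, edgeR adjusted p = 0.00653), and so did its antisense partner Tsix, at -1.07 (SE 0.13, edgeR adjusted p = 0.00126), whose reads cannot be told apart from those of Xist without strand. Meg3 and Rian, maternally expressed noncoding RNAs of an imprinted cluster, fell in OPC-like nuclei by 0.56 and 0.62. In hippocampus Meg3 and Rian were higher in neurons than in glia, by 4.03 and 3.90 on the log2 scale. The part of stray neuronal RNA in their fall was not tested. Sox2ot, a transcript that overlaps Sox2, rose in OPC-like nuclei by 0.29 (SE 0.06, edgeR adjusted p = 0.00375). Medians of this list were -0.13 and -0.10 in oligodendrocyte-like and astrocyte-like nuclei.

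Between neurons and glia, 18 of 31 nuclear speckle protein genes were lower and 6 higher in hippocampal neurons, with a median of -0.19 beside -0.05 over all genes. In caudate putamen 17 were lower and 9 higher, with a median of -0.17 beside -0.06. Of all genes 36.8 and 39.1% were lower and 35.4 and 36.7% higher. With library totals 27 were lower and 3 higher in each region, when 52.4 and 55.4% of all genes were lower. Son, a scaffold of the speckle, differed by -1.03 in hippocampus and -0.80 in caudate putamen, and Srsf3, a splicing factor, by -1.10 and -0.91. Srpk1, the largest change of this list in caudate putamen, was higher there by 0.93, and by 0.56 with totals. Of 5 genes for proteins known to bind Miat, 3 were lower in hippocampal neurons and 2 in those of caudate putamen, and 2 were higher in each. With library totals 3 were lower in each region, and 1 was higher in hippocampus and 2 in caudate putamen. The higher call lost was Celf1 in hippocampus, at 0.37 with scaling factors and 0.04 with totals (edgeR adjusted p = 0.394). Of the 5 the splicing regulator Celf3 was higher in neurons, by 2.02 and 2.12, and Qk, a glial splicing regulator, was lower, at -3.42 in both regions. Of the RNase P subunits and other Malat1 factors, 12 and 13 were tested, and 5 were higher and 4 lower in each region, but with library totals 2 and 1 were higher and 7 and 8 lower. Elac2, the enzyme that trims the small RNA cut from Malat1, was higher by 0.74 and 0.77, and by 0.41 and 0.40 with totals. The largest change of this list went the other way, with Rpp25l at -1.19 and -1.21, and at -1.52 and -1.58 with totals. Pop7 was lower too, at -0.63 and -0.74.

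The patterns over classes were set beside those of all genes as Pearson correlations of log2(CPM + 1) over 97 sums of a class in a library, among 10549 genes with a mean of at least 10 CPM. The sums share libraries, depth and class composition, so the values are descriptions. Snhg11 was most like Meg3 (r = 0.95) and Rian (r = 0.94), followed by Cntnap2, Rtl1 and B830012L14Rik. Neat1 was most like Prdx1 (r = 0.92), Baz2b, Nde1, Kdm6a and Gab1. Miat was most like Kcnj6 (r = 0.88), Shisa6, Kcnj3, Sez6l and Gm12296. Malat1 had no gene as near: Tle1 led at r = 0.69, before Lama2, Klf9, Chd4 and Fam214a. Among the 4 themselves, r ran from -0.66 for Neat1 with Snhg11 to 0.46 for Malat1 with Neat1, which are neighbours on chromosome 19.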

How the data were processed

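UMI counts per gene and nucleus were deposited for 8 libraries of 2 regions and 2 ages, 2 libraries per group. The submitters' processing notes name Cell Ranger 4.0.0 and mm10; per the file headers Cell Ranger 6.1.2 made 7 of them and 7.0.0 the second 3-month library of caudate putamen. Whether introns were counted is not given in the sources used here. Nuclei with at least 500 genes and under 5% mitochondrial UMIs were retained after removal of 10604 doublets of 109826 barcodes (Scrublet). For the second 3-month hippocampal library the automatic doublet threshold failed and the expected share was used. Nuclei were clustered per region (scanpy 1.11.5, 3000 variable genes, 40 components, Leiden resolution 1) without the 4 RNAs.

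Counts were summed per library and class with at least 20 nuclei in each library, and tested with edgeR 4.0.16 (robust quasi-likelihood, TMM, low-count filter, Benjamini-Hochberg over all genes of a class). Glial classes were fitted on all 8 libraries, neuronal classes on the 4 of their region. The test was checked on simulated data with known age changes. In oligodendrocyte-like nuclei over both regions it recovered 33.0% of changes of 0.5 on the log2 scale and 75.3% of changes of 1. In dentate granule-like nuclei of hippocampus it recovered 45.8 and 82.8%. It called 9 and 11 unchanged genes in these 2 runs. Alternatives included DESeq2 1.42.0, plain totals, no filter, retained doublets, resolution 0.5, thinning to 2000 UMIs and leaving out each library. Thinning left out nuclei under 2000 UMIs. In the second 21-month library of caudate putamen these were 1144 of 3821 oligodendrocyte-like and 201 of 418 microglia-like nuclei. Named genes are the 4 RNAs, at most 4 called members per list and comparison by size of change, the 5 most correlated genes of each and annotated neighbours, 1 of which is not reported here. The members and lists were chosen with earlier results of these data known.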

Additional observations from a re-analysis of the deposited data

How the results depend on the processing

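The 24 results called for a single RNA, comparisons of class pairs left out, were recomputed under 337 alternatives in all. None of these changed direction, 290 stayed past the threshold and 47 did not. Among class pairs the Malat1 sign did turn between scalings, in 10 of 55 pairs in hippocampus and 8 of 45 in caudate putamen. The called difference of endothelial-like against D1-like nuclei, -0.73 with scaling factors, was 0.07 with totals. Neat1 in astrocyte-like nuclei over both regions stayed called in 17 of 17 and Snhg11 in dentate granule-like nuclei in 14 of 14. Counts of called results moved more. For age in caudate putamen the count of 2 was 1 with DESeq2, with resolution 0.5 and with doublets retained, 2 in nuclei of 4000 to 16000 UMIs (where microglia-like nuclei could not be fitted), 0 after thinning, and 0 to 2 when a library was left out (0 without the second 21-month or first 3-month one). For age in hippocampus the count of 3 was 7 with DESeq2 and 10 without a filter on low counts, and 1 to 7 when a library was left out (1 without either 21-month library, 7 without the first 3-month one). For age in glia of both regions the count of 3 was 8 without that filter and 1 to 6 when a library was left out (1 without the first 21-month hippocampal library, 6 without the first 3-month one or the second 21-month library of caudate putamen). For the regional comparison in glia the count of 10 was 6 to 11 when a library was left out (6 without either 21-month hippocampal library or the second 3-month one of caudate putamen), and for the difference of age effects 1 in place of 0 without the filter. Pairs of classes in caudate putamen told apart by Malat1 were 24 with scaling factors and 15 with library totals, an alternative chosen after seeing the data.

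Replicate numbers are the same in all groups. Same-numbered libraries deviated together in caudate putamen (median r = 0.42 over 8 classes, 8 above 0) and not in hippocampus (median r = -0.07 over 9 classes, 3 above 0), and the labels do not say that a number marks shared animals or preparations. With a replicate block the counts were 4 for age in caudate putamen (the added calls were Miat in D1-like and D2-like nuclei, each at -0.72, adjusted p = 0.000193 and 0.00888), 7 in hippocampus and 8 in glia of both regions. Those added in hippocampus were Neat1 in dentate granule-like (0.54, adjusted p = 0.0137) and OPC-like nuclei (1.12, adjusted p = 0.0359) and Snhg11 in astrocyte-like (-0.87, adjusted p = 0.0352) and oligodendrocyte-like nuclei (-0.75, adjusted p = 0.0311). Those added in glia of both regions were Snhg11 in astrocyte-like (-0.58, adjusted p = 0.0220), microglia-like (-0.47, adjusted p = 0.0215) and oligodendrocyte-like nuclei (-0.47, adjusted p = 0.0186), and Malat1 (0.17, adjusted p = 0.0364) and Neat1 (0.71, adjusted p = 0.0413) in OPC-like nuclei. With the hippocampal pairing crossed, chosen after seeing the data, they were 7 in hippocampus and 6 in glia. With 2 libraries per group, and 1 to 9 Miat UMIs in some classes, small changes could go undetected, and nothing in the labels says that libraries came from separate preparations, so p-values measure the spread between these libraries.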

Other observations

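Some classes had too few nuclei in 1 or more libraries to be tested. Neuroblast-like nuclei, which passed the minimum of 20 nuclei in the 3-month hippocampal libraries alone, had 4.52 and 4.71% Malat1, 0.0204 and 0.0190% Miat and 0.0234 and 0.0299% Snhg11. Their Miat was at the level of dentate granule-like nuclei (0.0174 and 0.0206% at the same age) and their Snhg11 below it (0.0483 and 0.0496%). Choroid plexus-like nuclei, measured in 1 caudate putamen library per age, had 0.0458% Neat1 at 3 months and 0.0503% at 21 months, above each class tested except oligodendrocyte-like nuclei in mean share. Unnamed nuclei had 0.403 to 0.451% Snhg11 in caudate putamen and 0.3001 to 0.422% in hippocampus, and 0.0121 to 0.0216% Miat in hippocampus, within the ranges of named neurons of the same region. Macrophage-like nuclei of hippocampus, 12 to 31 per library, had 0.0482 and 0.0537% Neat1 at 3 months and 0.0678 and 0.0597% at 21 months, above VLMC-like nuclei in each library. Excitatory neuron-like nuclei in caudate putamen, 51 in the first 3-month library, had 0.0118% Miat and 0.542% Snhg11. The 4 libraries of interneuron-like nuclei there spanned 0.00484 to 0.00873% Miat and 0.507 to 0.554% Snhg11, so that the Snhg11 share lay within their range.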
